A study of Mus musculus with 6 samples.

Results

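The 47 genes described here encode the machinery of DNA replication and cell division. They comprise 21 genes of the G1/S transition, when origins are licensed and DNA synthesis starts, and 26 genes of G2 and mitosis. Members were chosen by name, and each was read from the transcript cluster (the array's probe set for a transcript) annotated to that gene alone, using the brightest cluster where a gene had several. All 21 G1/S genes and 25 of the 26 G2/M genes had such a cluster, which gives 46 of 19938 genes measured in this way. Ccnb1, which encodes the main mitotic cyclin, had no cluster of its own and was not measured here.

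The arrays compared HBC and LBC, cells that bound high or low amounts of FcsFNDC4, a long-lived soluble form of the hepatokine FNDC4 carrying an Fc tag. Both were sorted from the same immortalised stromal vascular fraction preadipocytes of inguinal white fat from male 129SVE mice, by fluorescence after exposure to FcsFNDC4 in the cold and staining with a secondary antibody to human IgG. Sorting and regrowth had been repeated up to passage 20, the cells were then expanded in the same serum-containing medium with no further treatment, and total RNA was hybridised to 3 Affymetrix mouse gene arrays per group. The study used the comparison to search for transcripts, above all of membrane receptors, that go with FcsFNDC4 binding. Each group was 1 sorted population and its arrays are labelled as technical replicates, so all p-values measure the spread between arrays and not that between independent sorts. Neither the growth rate of the cultures nor their density at lysis is given in the sources used here, and no cell cycle synchronisation is described. Groups follow the sample titles. The source names of LBC replicates 2 and 3 carry the wording of HBC, whereas their titles and their phenotype entries read LBC.

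A dividing cell prepares its origins in G1, when CDC6 and CDT1 load the MCM helicase onto DNA, and enters S phase as cyclin E with its kinase frees E2F from the retinoblastoma protein RB. E2F then drives the genes for nucleotide synthesis, helicase activation and the replication fork. Later in the cycle B-MYB and FOXM1 switch on the genes of mitosis, many through a CHR element (cell cycle genes homology region) near the start site, and in resting cells the DREAM complex represses both waves. The RNA of these genes is therefore abundant in cycling preadipocytes and scarce in resting ones. Because the arrays measured bulk RNA, fewer cells in a phase of the cycle and less RNA per cell in that phase cannot be told apart.

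The promoters of the 2 phases differed in the letters they held. RefSeq windows of GRCm38.p6, from 250 bases before to 50 bases after the start, were found for 37 of the 47 members, 17 of G1/S and 20 of G2/M. They were searched on both strands for E2F letters (TTTCCCGC, TTTCGCGC, TTTGCCGC or TTTGGCGC), for CHR letters (TTTGAA or TTCGAA, the second of which reads the same on both strands and was counted once) and for CCAAT, the box bound by NF-Y, and overlapping matches were kept. An E2F match stood in 8 of 17 G1/S genes (47.1%) and in 1 of 20 G2/M genes (5%, Cdk1), against 2.60% of all 27025 genes with a window. A CHR match stood in 4 of 17 G1/S genes (23.5%) and 15 of 20 G2/M genes (75%), against 21.7% of all genes. CCAAT stood in 64.7% of the G1/S genes, 85% of the G2/M genes and 41.1% of all genes. Every one of the 15 G2/M genes with a CHR match also held CCAAT, as did all 4 G1/S genes with a CHR match. A match is a description of the letters and not a mapped binding site.

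Of the members with a matching window, the 3 with the largest changes in each phase are shown, on the strand of the gene, with matches to any of these motifs in capitals. The first 3 are G1/S genes and the last 3 are G2/M genes.
Cdc6 (chr11:98907901-98908200, plus strand): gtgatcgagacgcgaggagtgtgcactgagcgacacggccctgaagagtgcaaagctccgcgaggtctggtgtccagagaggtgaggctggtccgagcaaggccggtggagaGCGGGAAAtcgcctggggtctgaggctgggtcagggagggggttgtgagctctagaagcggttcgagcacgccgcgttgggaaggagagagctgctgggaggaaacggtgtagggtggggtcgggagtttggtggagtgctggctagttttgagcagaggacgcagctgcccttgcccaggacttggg
Cdt1 (chr8:122567765-122568064, plus strand): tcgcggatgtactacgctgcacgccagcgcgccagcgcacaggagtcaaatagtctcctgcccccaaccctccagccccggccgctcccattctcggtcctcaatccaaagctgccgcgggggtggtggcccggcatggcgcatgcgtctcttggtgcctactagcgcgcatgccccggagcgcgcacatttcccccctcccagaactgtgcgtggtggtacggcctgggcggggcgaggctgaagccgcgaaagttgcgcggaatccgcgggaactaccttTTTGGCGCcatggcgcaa
Mcm3 (chr1:20820263-20820562, minus strand): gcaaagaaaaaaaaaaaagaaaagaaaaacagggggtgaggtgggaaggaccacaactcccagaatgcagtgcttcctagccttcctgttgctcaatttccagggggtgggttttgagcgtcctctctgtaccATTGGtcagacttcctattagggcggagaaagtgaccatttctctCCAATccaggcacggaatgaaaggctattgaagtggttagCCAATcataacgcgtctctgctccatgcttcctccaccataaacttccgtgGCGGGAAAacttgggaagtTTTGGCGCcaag
Cenpe (chr3:135212313-135212612, plus strand): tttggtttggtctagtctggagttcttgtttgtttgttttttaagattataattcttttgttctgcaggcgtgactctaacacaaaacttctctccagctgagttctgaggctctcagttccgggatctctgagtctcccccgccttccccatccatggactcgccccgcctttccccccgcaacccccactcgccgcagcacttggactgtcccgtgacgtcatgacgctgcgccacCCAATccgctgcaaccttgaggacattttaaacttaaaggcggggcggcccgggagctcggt
Ttk (chr9:83834439-83834738, plus strand): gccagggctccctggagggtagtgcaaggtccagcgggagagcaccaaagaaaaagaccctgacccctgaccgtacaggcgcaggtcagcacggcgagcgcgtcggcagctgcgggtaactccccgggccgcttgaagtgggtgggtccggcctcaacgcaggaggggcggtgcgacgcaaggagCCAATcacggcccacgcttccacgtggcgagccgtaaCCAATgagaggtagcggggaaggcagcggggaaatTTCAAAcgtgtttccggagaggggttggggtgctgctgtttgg
Bub1 (chr2:127831810-127832109, minus strand): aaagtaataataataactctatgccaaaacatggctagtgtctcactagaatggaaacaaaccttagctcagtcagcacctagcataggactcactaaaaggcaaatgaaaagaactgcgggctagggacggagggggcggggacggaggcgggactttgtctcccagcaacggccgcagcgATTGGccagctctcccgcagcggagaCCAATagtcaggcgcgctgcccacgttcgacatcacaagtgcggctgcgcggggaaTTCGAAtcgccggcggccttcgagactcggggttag
Cdc6 and Cdt1 each held 1 E2F match and Mcm3 held 2 E2F matches beside 3 CCAAT boxes. The window of Cenpe held CCAAT alone, while those of Ttk and Bub1 each paired a CHR match just after the start with 2 CCAAT boxes before it.

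Values were used as linear intensities. Their 75th percentile was 469 to 499 on 5 of the arrays and 541 on LBC replicate 3, although the median intensity of that array (131) lay within the range of the others (121.9 to 134.6). Arrays of a group correlated with r of at least 0.9961 and arrays of different groups with at most 0.9857, over log2 values. LBC replicate 3 was the highest of the 6 arrays for all 46 measured members, compared with 37.5% of all genes, and its part in the differences below was not tested. The values are therefore given as deposited, after quantile normalisation, and without that array. Every member apart from E2f2 exceeded 250 on every array, against 13.8 to 83.7 for the central range (10th to 90th percentile) of 1027 olfactory receptor genes, taken as a reference for dim signal. In the marker lists, 8 of 9 measured preadipocyte and stromal genes exceeded that range, 4 of them higher and 2 lower in HBC at an adjusted p under 0.05. Macrophage markers exceeded it for 3 of 7 genes (summed intensity 592 to 619 in HBC and 656 to 700.3 in LBC), mature adipocyte markers for 1 of 4 (264 to 314 and 277 to 326) and endothelial markers for 0 of 4 (196 to 244 and 216 to 262), and none of these 15 genes passed the test as deposited. The macrophage genes above the dim range were Cd68 (mean 174 in HBC and 188 in LBC), Itgam (159 and 188.5) and Csf1r (90.1 and 94.9). The adipocyte gene above it was Plin1 (136.2 and 136.6). The group means of Ptprc, Adipoq and Pecam1 lay within the dim range. The part of other cells in the results was not tested.

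Of the 46 members, 16 (34.8%) fell in HBC and 0 rose, all by less than 1.5-fold, against 11.4% of all genes lower and 6.93% higher. The licensing factors Cdc6 and Cdt1 led the falls. Without LBC replicate 3 the number that fell was 8 (17.4% of the members, against 15.6% of all genes). After centring each array on its median it was 5 (10.9%, against 7.64% of all genes), none of them of G2/M. As deposited, the mean was lower in HBC for 45 of 46 members, while 69.3% of all genes had a log2 fold change (HBC minus LBC) under 0. The median log2 fold change was -0.26 for the G1/S members and -0.18 for the G2/M members, against -0.072 for all genes. Values of single members ran from -0.52 for Cdc6 to 0.044 for Ccnb2. HBC and LBC were compared by limma on log2(intensity + 16), with Benjamini-Hochberg adjustment over all 19938 genes.

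**Figure D1:**
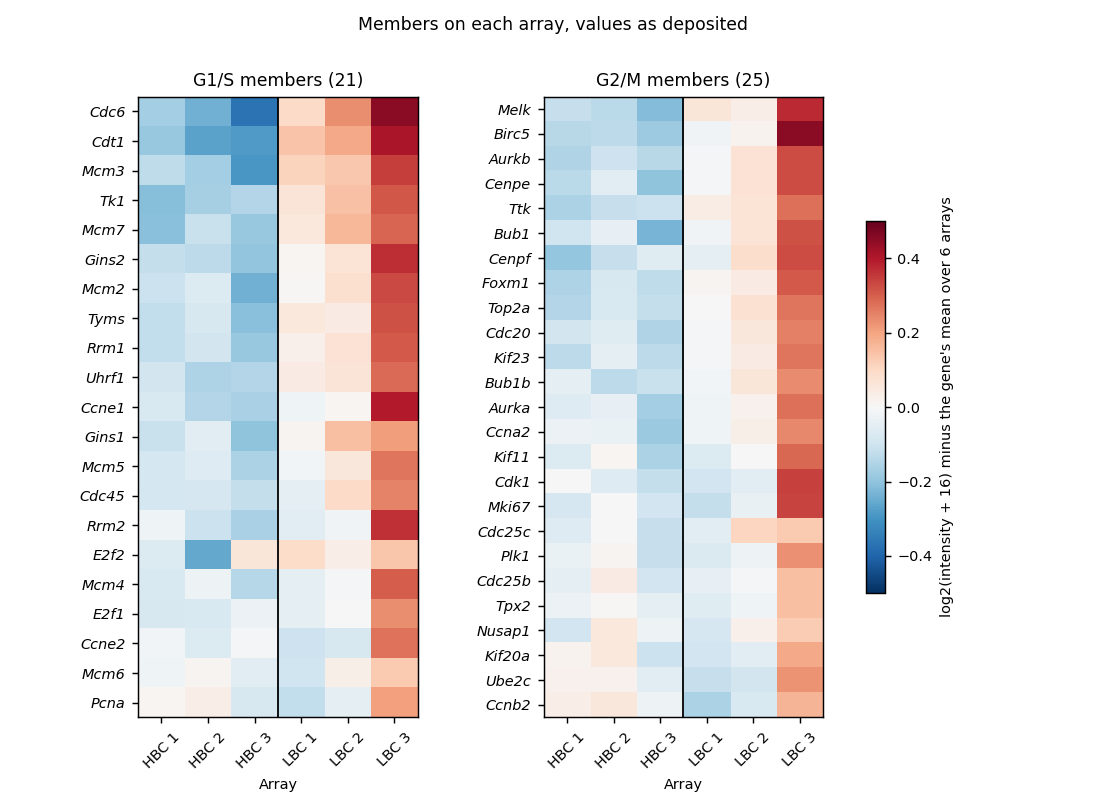
Each row is a member and each column an array; the colour gives log2(intensity + 16) on that array minus the gene's mean over the 6 arrays, with values as deposited. Members are ordered by their change within G1/S (21 genes) and G2/M (25 genes), and LBC replicate 3 is the reddest column in both panels.

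No member passed an adjusted p under 0.05 with a fold above 1.5, in either direction, compared with 1.13% of all genes lower and 2.54% higher in HBC. At an unadjusted p under 0.05 the number with that fold was also 0, with limma and with the methods' t-test. Without a fold threshold, 16 of 46 members (34.8%) fell in HBC and 0 rose, against 11.4% of all genes lower and 6.93% higher. The 16 comprised 11 of 21 G1/S genes and 5 of 25 G2/M genes. At an unadjusted p under 0.05 the 46 members held 26 by limma, against 29.9% of all genes in either direction, and 10 by the methods' t-test, against 24.7%. After adjustment the methods' t-test left 0 members, against 6.94% of all genes, its smallest adjusted p for a member being 0.058. The HBC arrays all lay below the LBC arrays for 28 members, 14 in each phase, a pattern seen for 25.1% of all genes. They all lay above for 0 members, against 10.1% of all genes.

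**Figure D2:**
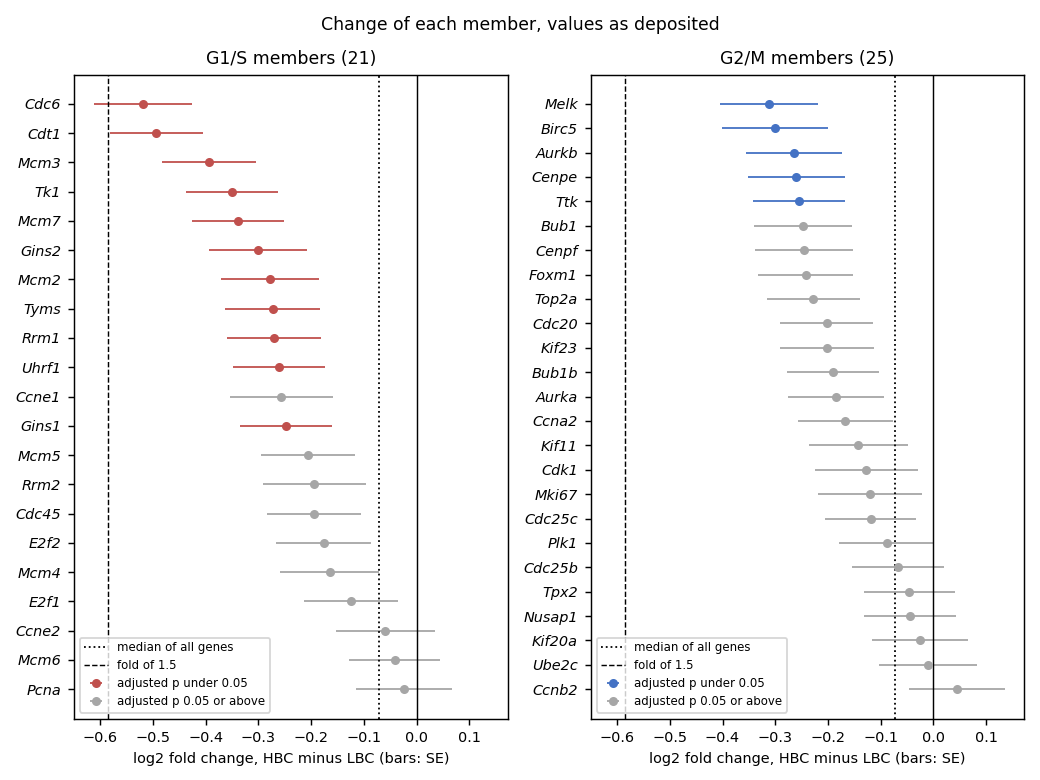
Points give the log2 fold change, HBC minus LBC, of each measured member and bars its standard error from limma with 3 arrays per group. Coloured points passed an adjusted p under 0.05 (11 of 21 G1/S and 5 of 25 G2/M genes), the dotted line is the median of all genes (-0.072), and no point reaches the dashed line of a 1.5-fold change.

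The licensing factors changed most. Cdc6, which encodes the ATPase that brings the helicase to origins, measured 347.5, 330.4 and 301 in the 3 HBC arrays and 421, 465 and 543 in the 3 LBC arrays. Cdt1, which encodes its loading partner, measured 462, 436 and 431 in HBC and 585, 605 and 706 in LBC. For both genes the highest HBC array lay below the lowest LBC array. Cdc6 fell by 0.52 ± 0.0935 on the log2 scale (SE, n = 3 arrays per group, adjusted p = 0.00011), to 0.685 of the LBC mean. Cdt1 fell by 0.49 ± 0.0887 (adjusted p = 1e-04), to 0.701 of the LBC mean. The promoter windows of both, printed above, hold E2F letters.

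The MCM genes encode the 6 subunits of the replicative helicase. All had a log2 fold change under 0, and 3 fell as deposited, against 11.4% of all genes lower. After quantile normalisation 5 of the 6 fell, against 17.3% of all genes. Differences between the subunits were not tested. Mcm3 measured 737, 715 and 656 in HBC and 873.5, 888 and 1029 in LBC, without overlap, and fell by 0.39 ± 0.0889 (adjusted p = 0.0016). Of the printed windows, that of Mcm3 is the one with 2 E2F matches. E2F letters also stood in a window of Mcm5, of Mcm6 and of Mcm7, but not in that of Mcm2. Mcm2 measured 1685, 1731 and 1539 in HBC against 1827, 1922 and 2291 in LBC, and fell by 0.28 ± 0.0922 (adjusted p = 0.033). The LBC spread of Mcm2 (SD 245) came largely from replicate 3, and without that array its log2 fold change was -0.18 (adjusted p = 0.074). Mcm7 also fell, by 0.34 (adjusted p = 0.0052). Mcm5 had a log2 fold change of -0.21 (adjusted p = 0.11), Mcm4 of -0.17 (adjusted p = 0.24) and Mcm6 of -0.042 (adjusted p = 0.78), none of which passed.

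GINS1 and GINS2 are subunits of the complex that, with CDC45, turns the loaded MCM ring into an active helicase. Gins2 fell by 0.30 (adjusted p = 0.021) and Gins1 by 0.25 (adjusted p = 0.044), whereas Cdc45 had a log2 fold change of -0.19 (adjusted p = 0.13). Gins2 gave -0.19 (adjusted p = 0.047) and Gins1 -0.21 (adjusted p = 0.051) without LBC replicate 3. All 3 had non-overlapping groups.

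Genes of nucleotide supply followed the helicase. Tk1, which encodes the thymidine kinase of the salvage pathway, measured 913, 944 and 957 in HBC and 1111.5, 1176 and 1321 in LBC. The groups did not overlap, and Tk1 fell by 0.35 ± 0.0872 (adjusted p = 0.0040). Its dimmer second cluster gave -0.34 (adjusted p = 0.0046). Tyms, for thymidylate synthase, and Rrm1, for the large subunit of ribonucleotide reductase, each fell by 0.27 (adjusted p = 0.032 for both). Omitting LBC replicate 3 gave -0.18 for Tyms (adjusted p = 0.060) and -0.19 for Rrm1 (adjusted p = 0.053). Rrm2, for the small subunit whose synthesis is tied to S phase, had a log2 fold change of -0.19 (adjusted p = 0.18).

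Pcna and the upstream regulators did not pass. Pcna, which encodes the sliding clamp of the replication fork, measured 2938, 2982 and 2759.5 in HBC and 2677, 2820.3 and 3362 in LBC. The groups overlapped, with HBC replicates 1 and 2 above LBC replicates 1 and 2, and the log2 fold change was -0.023 ± 0.0913 (95% interval -0.21 to 0.16, adjusted p = 0.89). A second, equally bright Pcna cluster gave -0.024. E2f1, the best known activator of the G1/S genes, measured 836, 838.5 and 868 in HBC and 858.5, 885 and 1042 in LBC, with a log2 fold change of -0.12 ± 0.0887 (adjusted p = 0.36). E2f2, a second activator, was the dimmest member at 79.7 to 110.0, with -0.18 (adjusted p = 0.19). The cyclin E genes gave -0.26 for Ccne1 (adjusted p = 0.065) and -0.059 for Ccne2 (adjusted p = 0.71). Uhrf1, whose product carries DNA methylation through replication, fell by 0.26 (adjusted p = 0.035) and gave -0.19 without LBC replicate 3 (adjusted p = 0.049).

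Among the G2/M genes 3 of 7 mitotic kinases fell, against 11.4% of all genes lower. So did 1 of 2 kinetochore genes and 1 of 4 genes of chromosomes and proliferation. Melk, which encodes a maternal embryonic leucine zipper kinase high in cycling cells, measured 1020, 1004 and 948 in HBC and 1154, 1132 and 1437.5 in LBC, without overlap, and fell by 0.31 ± 0.0928 (adjusted p = 0.016). Aurkb, for the kinase of the chromosomal passenger complex, measured 1793.5, 1851 and 1806 in HBC and 1987, 2097 and 2504 in LBC, and fell by 0.26 ± 0.0907 (adjusted p = 0.040). Ttk, for the spindle checkpoint kinase MPS1, fell by 0.25 (adjusted p = 0.040). Without LBC replicate 3, Aurkb gave -0.17 (adjusted p = 0.073) and Ttk -0.18 (adjusted p = 0.053), and Melk alone of the G2/M members still passed (-0.20, adjusted p = 0.037). The window of Ttk holds CHR and CCAAT letters, as does that of Bub1, which did not pass. Bub1 gave -0.25 (adjusted p = 0.064), Bub1b -0.19 (adjusted p = 0.14), Aurka -0.18 (adjusted p = 0.17) and Plk1 -0.089 (adjusted p = 0.54).

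Birc5, which encodes survivin, a partner of AURKB, measured 648, 651 and 628 in HBC and 705, 724 and 983 in LBC. The separation from LBC replicates 1 and 2 was narrow and replicate 3 stood far above, and Birc5 fell by 0.30 ± 0.100 (adjusted p = 0.034). Without LBC replicate 3 its log2 fold change was -0.15 (adjusted p = 0.097). Cenpe, for a kinetochore motor, measured 925, 977 and 883 in HBC and 1010.5, 1070.0 and 1277 in LBC, and fell by 0.26 ± 0.0919 (adjusted p = 0.047). It gave -0.16 without LBC replicate 3 (adjusted p = 0.097). Its window holds CCAAT letters and no CHR match. Its kinetochore neighbour Cenpf gave -0.25 (adjusted p = 0.066).

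The genes most often used as proliferation markers did not pass. Mki67, which encodes the Ki-67 antigen, measured 1977, 2095 and 1960.5 in HBC and 1929, 2044 and 2652 in LBC. Apart from LBC replicate 3 the arrays of the 2 groups overlapped, and the log2 fold change was -0.12 ± 0.0983 (95% interval -0.32 to 0.080, adjusted p = 0.43). Cdk1, for the kinase that drives mitosis, showed the same arrangement, with 2270.0, 2172 and 2091 in HBC and 2128, 2190 and 2886 in LBC, and a log2 fold change of -0.13 ± 0.0983 (adjusted p = 0.41). Top2a, for the topoisomerase that untangles sister chromatids, measured 2125, 2231 and 2167.5 in HBC and 2353, 2482 and 2835 in LBC. Its groups did not overlap, but a log2 fold change of -0.23 ± 0.0880 did not pass (adjusted p = 0.071), nor did its dim second cluster (-0.14, adjusted p = 0.33). Foxm1, for the transcription factor of the G2/M wave, measured 1110 in HBC replicate 1, 1172 in replicate 2 and 1132 in replicate 3, below 1251, 1275.5 and 1536 in LBC, with -0.24 ± 0.0900 (adjusted p = 0.060).

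The mitotic cyclins, their activators and the spindle genes moved least. Ccnb2, for cyclin B2, had the highest log2 fold change of the members at 0.044 ± 0.0909 (adjusted p = 0.78), with HBC at 3613, 3667 and 3470.5 and LBC at 3155, 3342 and 3975. Its LBC arrays thus lay on both sides of HBC. Ccna2, for cyclin A2, gave -0.17 (adjusted p = 0.21), and the phosphatase genes gave -0.12 for Cdc25c and -0.067 for Cdc25b. The anaphase-promoting complex takes part through its activator Cdc20 (-0.20, adjusted p = 0.11) and its ubiquitin-conjugating enzyme Ube2c (-0.010, adjusted p = 0.95). Of the spindle motors and microtubule proteins, Kif23 gave -0.20 (adjusted p = 0.12) and Kif11 -0.14 (adjusted p = 0.32). Tpx2 and Nusap1 each gave -0.045 and Kif20a -0.026, all with adjusted p of at least 0.76.

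Scaling between arrays changed how many members passed and not the order of the medians of the G1/S and G2/M members. This order is that of the named members alone. As deposited, 77 other mitotic genes had a median of -0.26, like the G1/S members, and 60 other replication factors had -0.28. After quantile normalisation 31 of 46 members fell, 16 of G1/S and 15 of G2/M, against 17.3% of all genes. The arrays then separated for 36 members, with all HBC below all LBC, against 26.1% of all genes. Cyclic loess gave 25 members (13 and 12) against 12.8% of all genes. Centring each array on its median gave 5 members, all of G1/S, against 7.64%. Leaving out LBC replicate 3 gave 8 members, 7 of G1/S and Melk, against 15.6%. Cdc6, Cdt1, Mcm3, Mcm7 and Tk1 passed in every limma fit that was run and failed only by the methods' t-test. The other 11 passed in fewer of the 22 alternatives, from 11 for Rrm1 and Aurkb to 17 for Melk, and in none of the members was the direction of a call turned.

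The spread between arrays differed between the scalings. The median SD of a member between LBC arrays was 0.156 on the log2 scale as deposited and 0.0312 after quantile normalisation, against 0.0523 and 0.0382 between HBC arrays. LBC replicate 3 was the highest array for 28 members after quantile normalisation, against 26% of all genes. After quantile normalisation the medians of the 2 phases moved less than the counts. The medians were then -0.24 for G1/S, -0.19 for G2/M and -0.027 for all genes. They were -0.18, -0.092 and -0.078 without LBC replicate 3. Without that array the sign was negative for 35 of 46 members, against 67.4% of all genes. The median of the G2/M members then lay close to that of all genes. That of 77 other mitotic genes, described below, was -0.16 without that array, and 32 of them fell, against 15.6% of all genes. Leaving out other single arrays gave 6 G1/S and 1 G2/M genes without HBC replicate 1, the same numbers without HBC replicate 2, 5 and 0 without HBC replicate 3, 15 and 9 without LBC replicate 1, and 9 and 2 without LBC replicate 2. Without LBC replicate 1, Cdc6 alone passed the fold threshold as well (-0.60). The shares of all genes are not given for these omissions, so their counts are not set against all genes.

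The members that passed after quantile normalisation can be named. All G1/S members passed apart from Mcm6, Pcna, Ccne2, E2f1 and E2f2. Of the G2/M members, Ccnb2, Cdk1, Cdc25b, Cdc25c, Plk1, Mki67, Tpx2, Kif20a, Ube2c and Nusap1 did not pass. Plk1 and Cdk1 came to -0.090 (adjusted p = 0.10) and -0.15 (adjusted p = 0.089), and Mki67 to -0.14 (adjusted p = 0.10). By contrast Top2a (-0.25, adjusted p = 0.0035) and Foxm1 (-0.23, adjusted p = 0.0045) then passed.

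The median levels of the 2 phases were read on each array. The median G1/S level, relative to each gene's mean over the 6 arrays, was -0.092, -0.092 and -0.16 (log2) in HBC and 0.012, 0.066 and 0.30 in LBC. The median G2/M level was -0.084, -0.043 and -0.12 in HBC and -0.021, 0.030 and 0.27 in LBC. The groups separated for both phases, narrowly for G2/M. After subtraction of the median over all genes they still separated for G1/S, with HBC at -0.059, -0.042 and -0.15 and LBC at -0.018, 0.034 and 0.26. For G2/M they overlapped, with HBC at -0.051, 0.0069 and -0.10 and LBC at -0.050, -0.0023 and 0.23.

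The difference of the 2 medians on an array, G1/S minus G2/M, removes a shift common to both. It was -0.0077, -0.049 and -0.045 in HBC and 0.032, 0.036 and 0.034 in LBC, so the LBC arrays, replicate 3 included, lay together and above HBC. After quantile normalisation it was 0.0050, -0.065 and -0.039 in HBC and 0.021, 0.018 and 0.039 in LBC, still without overlap. With 3 arrays against 3 an exact two-sided permutation test cannot give a p under 0.1, and none is given for these medians.

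**Figure D3:**
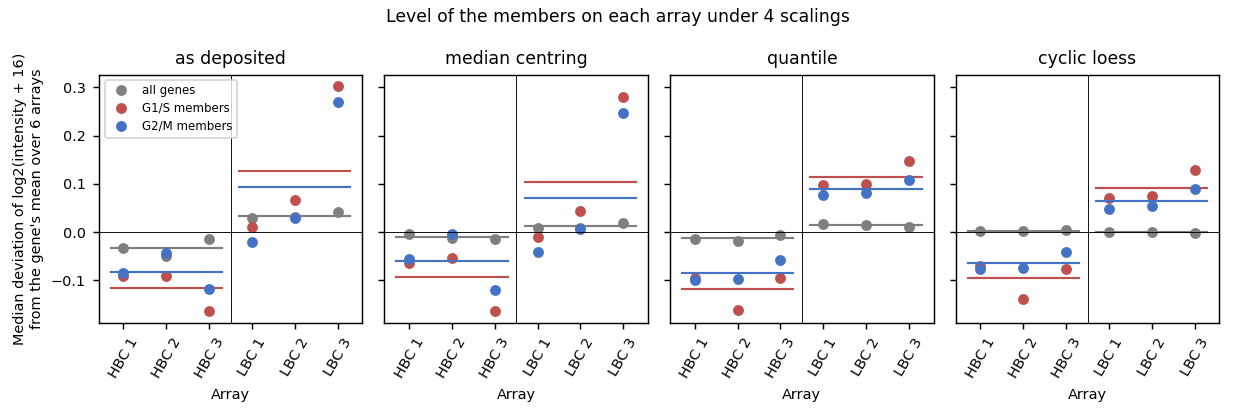
Points give, for each array, the median over G1/S members, G2/M members or all genes of log2(intensity + 16) minus the gene's mean over the 6 arrays. The panels show values as deposited, after median centring, after quantile normalisation and after cyclic loess. LBC replicate 3 stands at 0.30 and 0.27 as deposited and at 0.15 and 0.11 after quantile normalisation, where all LBC arrays lie above all HBC arrays for both phases.

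The choice of reference matters for a shift this small. The members are bright genes, 30 of them with a mean above 1000, and the median log2 fold change of the 2770 genes that bright was -0.026. For the 907 genes above 2000, of which 10 were members, it was 0.0021. As deposited, the bright genes thus had medians nearer to 0 than the -0.072 of all genes. After quantile normalisation the medians of these bright sets were -0.038 and -0.030, close to the -0.027 of all genes.

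Replication genes outside the module fell as well. Of 60 measured replication factors and checkpoint genes, 38 fell and 0 rose, with a median log2 fold change of -0.28, against 11.4% of all genes lower and 6.93% higher and a median of -0.072. After quantile normalisation 48 fell, against 17.3% of all genes, and without LBC replicate 3, 30 fell and 1 rose, against 15.6% lower. Of the 60, 2 also passed the fold threshold, against 1.13% of all genes lower. Dna2, for the nuclease and helicase that trims Okazaki fragments, measured 146, 141 and 134 in HBC and 226, 223 and 276 in LBC (-0.72 ± 0.0905, adjusted p = 3.8e-07). Prim1, for the catalytic subunit of primase, measured 683, 682 and 667 in HBC and 971.5, 992 and 1151 in LBC (-0.60 ± 0.0874, adjusted p = 4.5e-06). Next came Rnaseh2a, for a ribonuclease that removes RNA from DNA, at -0.57, and Orc2, for a subunit of the origin recognition complex, at -0.55. For Rnaseh2a, LBC replicate 3 (951) was not the highest array, and its log2 fold change was -0.57 without that array too.

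Of 19 genes listed for the E2F, RB and DREAM machinery, Myc included, 7 fell and 0 rose (median -0.17), against 11.4% of all genes lower. After quantile normalisation 10 fell (median -0.14, against 17.3% of all genes), and without LBC replicate 3, 6 fell and the median was -0.076, against 15.6% and a median of -0.078 for all genes. E2f5, a repressor E2F that works with the pocket proteins, fell by 0.50, Lin9, a scaffold shared by the DREAM and B-MYB complexes, by 0.47, Mybl2, which encodes B-MYB, by 0.47, and Myc, a growth regulator, by 0.45 (adjusted p at most 0.00061). The pocket protein genes Rb1, Rbl1 and Rbl2 gave -0.050, -0.055 and -0.056, none of which passed. Of 13 G1 cyclin and kinase genes 3 fell and 0 rose (median -0.11, against 11.4% of all genes lower). After quantile normalisation 6 fell (17.3% of all genes). Without LBC replicate 3, 2 fell and Ccnd2, for cyclin D2, was higher (0.23, adjusted p = 0.030), with a median of -0.064. The 3 that fell as deposited were Skp2, for the ubiquitin ligase subunit that degrades p27 (-0.43, adjusted p = 0.00078), Ccnh, for the cyclin of the CDK-activating kinase (-0.34), and Cks1b, for a cofactor of SKP2 (-0.30, adjusted p = 0.026), which gave -0.18 without LBC replicate 3 (adjusted p = 0.073).

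Among the inhibitors of cyclin-dependent kinases the genes that passed were higher in HBC. Of 7 measured genes 2 rose and 0 fell, with a median log2 fold change of 0.042, against 6.93% of all genes higher. Cdkn2c, which encodes the CDK4 and CDK6 inhibitor p18, measured 821, 914 and 826 in HBC and 517, 530.1 and 620 in LBC. It rose by 0.61 ± 0.0896 (adjusted p = 5.5e-06), also past the fold threshold, and gave 0.64 after quantile normalisation and 0.69 without LBC replicate 3. Cdkn1b, which encodes p27, measured 1403, 1471 and 1398 in HBC and 1146.5, 1173 and 1269 in LBC, and rose by 0.25 ± 0.0846 (adjusted p = 0.037). Cdkn2c passed in all 22 alternatives and Cdkn1b in 13. The call of Cdkn1b was lost without HBC replicate 1 (0.26, adjusted p = 0.12), 2 (0.23, adjusted p = 0.16) or 3 (0.26, adjusted p = 0.064) and without LBC replicate 1 (0.22, adjusted p = 0.11) or 2 (0.24, adjusted p = 0.17), at log2 fold changes of 0.22 to 0.32 over all alternatives. For both genes every HBC array exceeded every LBC array, although LBC replicate 3 was again the highest of its group. Cdkn2a and Cdkn2b, at the locus of p16, ARF and p15, gave -0.12 and -0.058, and Cdkn1c, Cdkn2d and Cdkn3 gave -0.051, 0.042 and 0.086, none of which passed. Cdkn1a, for p21, shared its cluster with another symbol and was not measured here.

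Of 77 mitotic genes outside the module 40 fell and 0 rose (median -0.26), against 11.4% of all genes lower. After quantile normalisation 58 fell, against 17.3% of all genes, and without LBC replicate 3, 32 fell (median -0.16), against 15.6%. The leading genes were Spc25, for a subunit of the NDC80 kinetochore complex (-0.50), Ect2, for the exchange factor that starts cytokinesis (-0.48), Ncapg, for a condensin I subunit (-0.46), and Psrc1, for a spindle microtubule protein (-0.45). Of 11 genes of cohesin and condensin II, which are needed through the cycle, 0 passed in either direction (median -0.14, and -0.037 without LBC replicate 3), and 5 fell after quantile normalisation (median -0.12, against 17.3% of all genes lower). Of 22 core histone genes, a list added after the data were seen, 7 fell and 0 rose (median -0.20), against 11.4% of all genes lower. After quantile normalisation 15 fell (17.3% of all genes), and without LBC replicate 3, 6 fell (15.6%) with a median of -0.12. The largest falls were those of H2bc18 (-0.45), H2ac4 (-0.35), H3c4 (-0.35) and H4c3 (-0.30). Histone genes have near-identical copies, so their clusters may share probe signal.

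**Figure D4:**
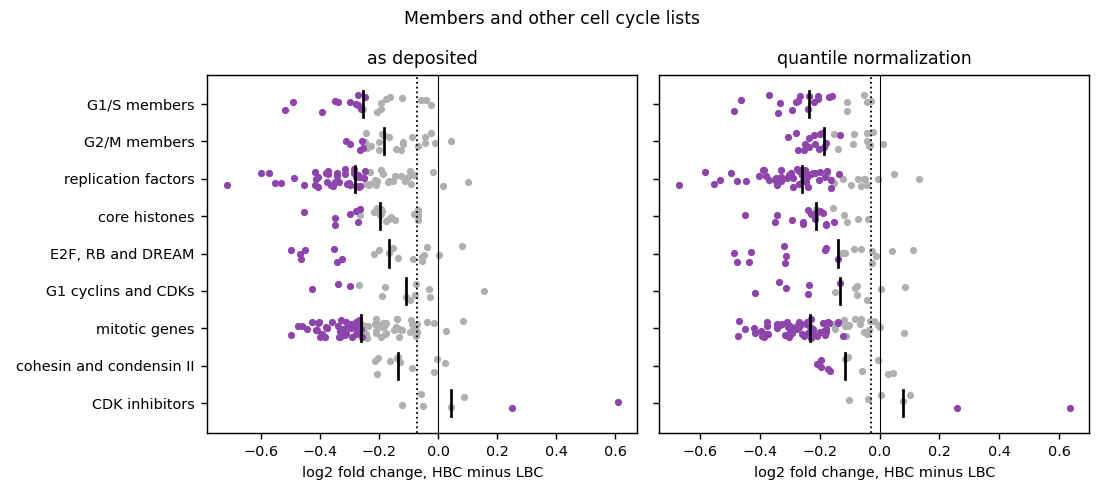
Each point is a gene of the named list, placed by its log2 fold change, HBC minus LBC. The left panel is as deposited and the right panel is after quantile normalisation. Purple points passed an adjusted p under 0.05 without a fold threshold. Black bars are list medians and the dotted line is the median of all genes in each panel. As deposited, replication factors (median -0.28) and mitotic genes (-0.26) lie to the left, and the CDK inhibitors (0.042) do not.

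Promoter letters and change were set side by side for genes with a window. For the 9 measured members with an E2F match the median log2 fold change was -0.26, and 5 of them fell. The 19 measured members with a CHR match had -0.19 and 3 of them fell (15.8%). Among genes that are no members, 534 with an E2F match had a median of -0.095 with 17.6% lower, against -0.072 and 11.3% for all 15578 with a window. For the 2955 with a CHR match the values were -0.071 and 10.9%. These are descriptions over genes that share arrays, and no test was made of them.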

How the data were processed

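Total RNA of 3 HBC and 3 LBC arrays was measured on Affymetrix mouse gene arrays, grouped by sample title. The authors deposited linear intensities made, per their processing notes, with Affymetrix Expression Console. How probes were summarised, how arrays were scaled to each other and which software version was used: not given in the sources used here. Row identifiers fitted an array annotation older than the 2.0 design named in the methods. Of 35556 transcript clusters, 21789 carried 1 symbol, 1621 several and 12146 none, and clusters with several or none were left out. The 21789 gave 19938 genes, 999 of them with several clusters, of which the one with the highest mean intensity was used. All 46 measured members matched a RefSeq gene by identifier.

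Intensities were read as log2(intensity + 16), so a fold change of a dim gene is understated, and were tested by lmFit and eBayes of limma (version 3.58.1, under R 4.3.3; two-sided, no replicate block), with Benjamini-Hochberg adjustment over all genes. A pass means an adjusted p under 0.05, and the fold threshold was 1.5. The variance prior had 24.9 degrees of freedom against 4 residual ones. The number of arrays limits the precision. The script was tested on simulated data. The methods' t-test, other scalings, filters, pseudocounts, priors and cluster choices, a replicate block and the omission of each array were alternatives.

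The members, the phases and the gene lists were chosen with earlier results of these data known, so no list or set test was run. Counts are given beside the shares of all genes, apart from those of some alternatives. Every member is named. Values on each array are given for the 4 largest changes among passing members of each phase and for Mcm2, Pcna, E2f1, Cdk1, Mki67, Top2a and Foxm1, and those of Ccnb2 were added after they were seen. Of each other list, up to 4 passing genes with the largest change are named. Ccnd2, and array values of Dna2, Prim1, Cdkn2c and Cdkn1b, and the genes that did not pass in the E2F, RB and DREAM and the inhibitor lists, were added after their values were seen. Promoter windows come from RefSeq tables of GRCm38.p6.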

Additional observations from a re-analysis of the deposited data

How the results depend on the processing

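The number of G2/M members that fell was 5 as reported, against 11.4% of all genes lower. It was 15 after quantile normalisation (17.3% of all genes) and 12 after cyclic loess (12.8%). It was 13 after quantile normalisation without LBC replicate 3, and 9 with a filter on a mean intensity above 100 in both groups or in at least 1 group. A pseudocount of 50 gave 8, and scaling to the 75th percentile gave 8. The filters also change the genes tested. Shares of all genes are given above for median centring, the methods' t-test and the omission of LBC replicate 3. For the other settings named here no share is given, so those counts are not set against all genes. E2f2 was removed by the filter in both groups. The 75th percentile scaling and quantile normalisation without an array were chosen after the data were seen. The G1/S and G2/M numbers were 5 and 0 under median centring, under subtraction of the median of all genes and with a pseudocount of 1, and 0 and 0 by the methods' t-test. Leaving out single arrays gave 5 to 15 G1/S and 0 to 9 G2/M genes, 0 to 1 members past the fold threshold, and medians of -0.31 to -0.18 for G1/S and -0.24 to -0.092 for G2/M. Dropping the fold threshold took the members past it from 0 to 16. Deviations from the group means had correlations of -0.096 for the arrays numbered 1, -0.24 for those numbered 2 and -0.50 for those numbered 3. The closest pair was HBC replicate 3 with LBC replicate 1 (0.49). Deviations within a group cancel out over its 3 arrays, so these correlations cannot show whether the replicate numbers pair the arrays. With the replicate number as a block, 6 G1/S and 2 G2/M genes fell. The cause of these changes was not tested. Of 1011 values of single members under the alternatives, 807 kept their direction and side of the threshold, 103 no longer passed, 66 newly passed and 35 turned in sign. The turned values belong to 12 members, none of which passed as reported. Cyclic loess gave 0.0125 for Ccne2, 0.0153 for Cdc25b, 0.0098 for Kif20a, 0.003 for Ube2c and 0.0121 for Nusap1. Median centring gave 0.0026 for Mcm6, 0.0211 for Pcna, 0.0184 for Kif20a and 0.034 for Ube2c. Subtraction of the median of all genes gave 0.0304 for Mcm6, 0.0489 for Pcna, 0.0129 for Ccne2, 0.0048 for Cdc25b, 0.0268 for Tpx2, 0.0463 for Kif20a, 0.0618 for Ube2c and 0.0273 for Nusap1. The 75th percentile gave 0.0167 for Pcna, 0.0138 for Kif20a and 0.0295 for Ube2c, and quantile normalisation without LBC replicate 3 gave 0.0212 for Ccne2. Leaving out single arrays took Mcm6 from -0.1014 to 0.0129, Pcna from -0.0903 to 0.0732, Ccne2 from -0.126 to 0.0623, Ccnb2 from -0.0247 to 0.1411, Cdk1 from -0.2065 to 0.0118, Plk1 from -0.147 to 0.0035, Mki67 from -0.2107 to 0.0175, Tpx2 from -0.0873 to 0.0174, Kif20a from -0.0797 to 0.063, Ube2c from -0.0709 to 0.0989 and Nusap1 from -0.0983 to 0.0076, the lowest without LBC replicate 1 and the highest without LBC replicate 3. Without HBC replicate 3, Pcna, Kif20a and Ube2c were also above 0.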
